A study of Mus musculus with 5 samples.

Results

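The AP-1, Egr1 and Myc genes of the immediate early response were examined in C3G null and WT mouse ES cells. These are 10 genes of transcription factors and nuclear regulators, namely Fos, Fosl1, Fosl2, Jun, Junb, Jund, Atf3, Egr1, Ier2 and Myc, taken by name from 55147 gene symbols in the deposited RNA sequencing table, and all 10 were found there. The WT group holds 3 samples of E14Tg2a, a mouse embryonic stem cell line. The C3G null group, labelled C3G-/-, holds 2 samples of E14Tg2a cells in which a puromycin cassette had replaced early exons of the C3G gene, Rapgef1. Null lines were grown from picked, puromycin-resistant colonies. The labels do not say which clone each null sample came from or whether the pair share a clone, and the WT samples are the unselected parent cells rather than the vector control, so clone, selection and genotype cannot be told apart. Both groups grew in serum with LIF on gelatin and had no treatment, so the values are levels in growing cells and not a response to a stimulus.

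Immediate early genes are transcribed within minutes of a growth factor, adhesion or stress signal, from factors already present in the cell and without new protein synthesis. ERK and other kinases act on SRF with its ternary complex partners and on CREB at their promoters, and the mRNAs are short-lived. Fos and Jun proteins pair through leucine zippers to form AP-1, which binds a short palindrome in target genes. Egr1 is a zinc finger factor of the same response. Myc pairs with Max and drives genes of growth and ribosome production, and in ES cells it is known as one of the factors downstream of LIF and STAT3. C3G is an exchange factor for Rap GTPases and has been placed upstream of MAPK signaling in several cell types.

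RefSeq promoter entries (GRCm38.p6) were at hand for 6 of the 10 genes, and the 250 bases before the start site are printed for the 3 of them whose window lies just before the annotated gene and outside annotated exons, so that a gene that did not pass the test (Fos) can be set beside a pair that fell (Jun and Junb). Capitals mark each match to the core of the cAMP response element (TGACG), to a variant of the whole element (TGACATCA) or to the TATA box (TATAAA), on either strand.
Fos, chr12:85473640-85473889, plus strand: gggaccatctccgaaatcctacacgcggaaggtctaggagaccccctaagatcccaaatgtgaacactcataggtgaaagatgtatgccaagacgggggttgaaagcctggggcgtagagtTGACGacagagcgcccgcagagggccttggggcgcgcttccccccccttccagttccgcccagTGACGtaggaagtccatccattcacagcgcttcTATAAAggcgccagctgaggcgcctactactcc
Jun, chr4:95052223-95052472, minus strand: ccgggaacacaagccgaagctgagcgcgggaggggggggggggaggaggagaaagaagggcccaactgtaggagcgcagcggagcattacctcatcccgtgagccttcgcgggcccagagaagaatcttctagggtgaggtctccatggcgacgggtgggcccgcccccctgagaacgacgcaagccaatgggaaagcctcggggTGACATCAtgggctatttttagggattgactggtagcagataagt
Junb, chr8:84978749-84978998, minus strand: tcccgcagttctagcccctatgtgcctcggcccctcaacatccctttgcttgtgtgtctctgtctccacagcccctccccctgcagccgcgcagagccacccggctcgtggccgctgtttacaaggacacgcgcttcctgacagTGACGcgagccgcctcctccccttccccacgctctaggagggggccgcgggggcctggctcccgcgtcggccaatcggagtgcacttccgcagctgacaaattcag
The Fos window held the core at 129 and at 66 bases before the start, and a TATA box at 33 bases. The Jun window held the variant at 45 bases, and the Junb window held the core at 106 bases. Over 32851 RefSeq promoter windows of this length, 17.8% held the core, 2.93% the variant and 12.4% the TATA box. The full element (TGACGTCA), which contains the core, the AP-1 site (TGANTCA) and the CArG box bound by SRF had no match in these 3 windows, and were found in 1.55%, 6.75% and 1.47% of all windows. Sites more than 250 bases before the start were not searched, so these genes may hold such elements further upstream.

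The deposited values are TPM, in which each transcript is set against its length and the total of its sample, so levels can be compared between genes, while the number of reads and the counting error are unknown. Genes for snRNA, snoRNA, scaRNA, miRNA and other small RNAs held between 55.8% and 62.2% of the TPM in WT and 73.4% and 61.1% in the C3G null samples, and protein-coding genes between 28.8% and 31.9% in WT and 18.6% and 26.0% in the null samples. TPM in a sample sum to a fixed total, so a larger share for some genes lowers the TPM of the others. The small RNA share of C3G null 2 lay within the WT range, and the part of such shares in the fold changes was not tested. The median log2 fold change over the 12518 genes with at least 1 TPM in 2 samples was -0.55 as deposited. Values were therefore divided by a size factor for each sample, which is the median over genes of the TPM divided by that gene's geometric mean (median-of-ratios scaling, as in DESeq2), which brought this median to 0.0052. Fold changes are C3G null against WT on log2(scaled TPM + 1), which understates the change of genes with low TPM, and were tested with limma, two-sided, with Benjamini-Hochberg adjustment over the 12518 genes and a threshold of 0.05. With that test 16.6% of the tested genes were lower and 14.1% higher in C3G null cells, and with TPM as deposited 56.8% were lower and 1.45% higher. Rapgef1, the targeted gene, had scaled levels of 8.67, 8.46 and 8.75 TPM in WT and 6.35 and 6.14 TPM in the null samples (log2 fold change -0.41, adjusted p = 0.00444 from limma), the direction its labels give, and exons outside the replaced stretch still count toward it. It did not pass once each sample was corrected for GC content and transcript length (log2 fold change -0.14, adjusted p = 0.175 from limma).

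Of the 10 genes 9 were tested and Fosl1 lay below the filter. After scaling, 6 of the 9 were lower in C3G null cells, Fosl2, Jun, Junb, Atf3, Myc and Egr1, beside the 16.6% of all tested genes that were lower. None was higher by limma (none at an unadjusted p under 0.05 either), beside 14.1% of all. Fos, Jund and Ier2 did not pass. As deposited all 9 were lower, beside 56.8% of all. Both null samples lay below every WT sample for 8 of the 10 genes, Fosl1 included, beside 29.3% of the tested genes after scaling and 75.7% as deposited, and for Jund and Ier2 the groups overlapped. With no filter on low TPM, 4 of the 10 were lower, beside 5.74% of the genes then tested, and none was higher by limma, beside 4.33%. In bulk RNA, fewer cells that express a gene and less of its RNA per cell cannot be told apart. The filter itself enters these counts: Fos, Fosl2 and Atf3 were kept through WT alone, having under 1 TPM in both null samples, and of the 1354 tested genes like them 39.4% were lower. Jun and Egr1 had 1 null sample at 1 TPM or more, where the background was 20.4%, and Junb, Jund, Ier2 and Myc had both, where it was 13.2%. In the plot of TPM by sample, scaling brings samples of the same group together for most of the genes.

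**Figure D1:**
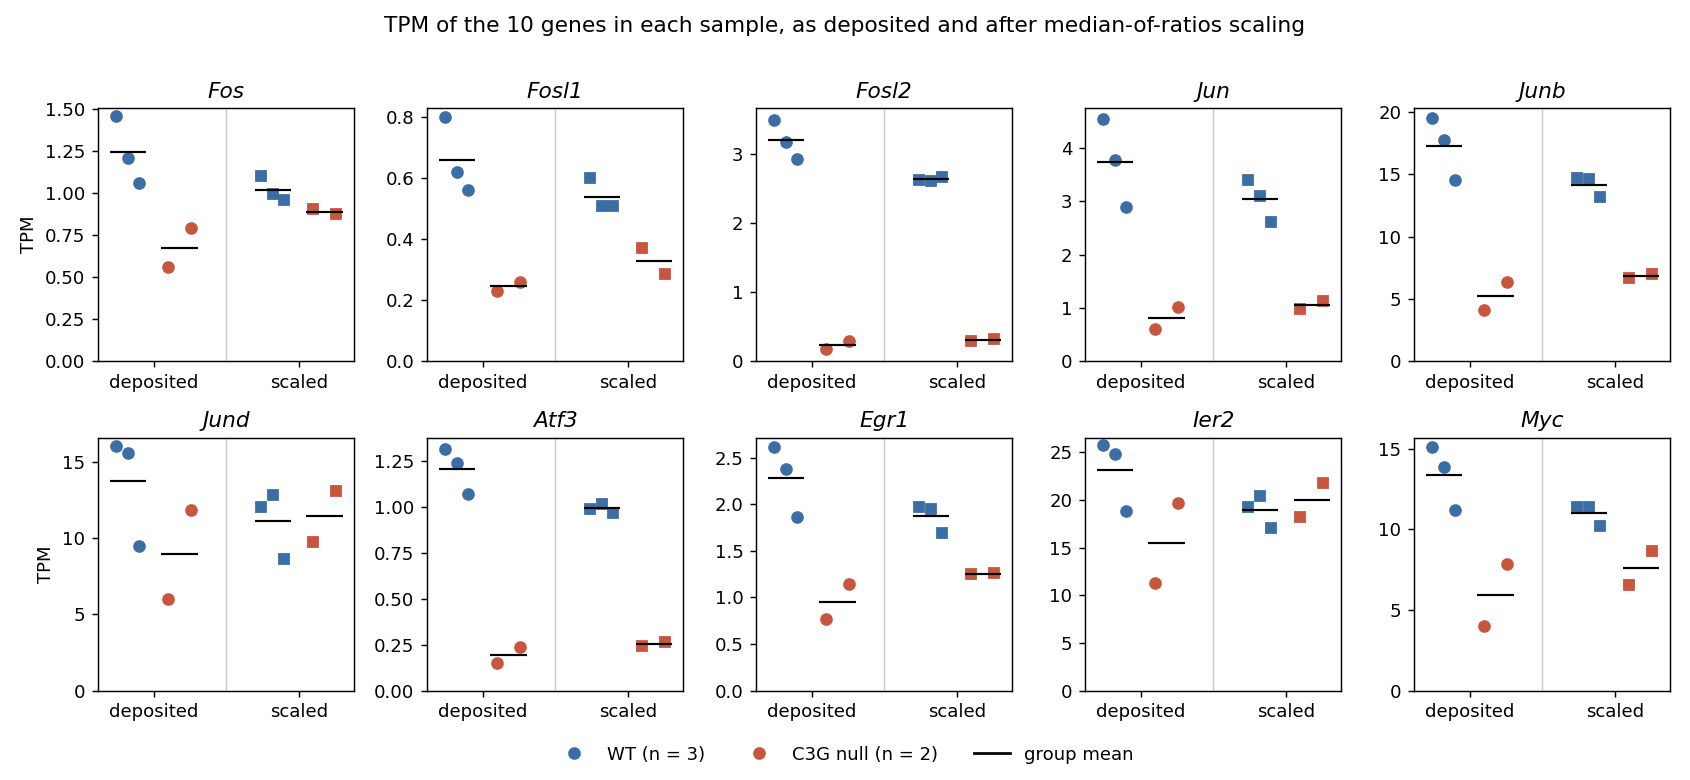
TPM (y axis, linear from 0) of each of the 10 genes in the 3 WT samples (blue) and the 2 C3G null samples (red), as deposited (circles) and after median-of-ratios scaling (squares), with black lines at group means. For 8 genes both null samples lie below every WT sample on either scale, and for Jund and Ier2 the groups overlap.

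Among the Fos proteins, which need a Jun partner to bind DNA, Fosl2 was the one past the threshold. Fosl2 (FRA-2; ENSMUSG00000029135, chromosome 5 of GRCm38 from 32135801 to 32157842) had scaled levels of 2.62, 2.60 and 2.66 TPM in the 3 WT samples, in order, against 0.291 and 0.321 TPM in the null samples. The WT samples lay within 0.022 of each other on the log2 scale, and both null samples were far below them. Its mean level in C3G null cells was 11.7% of that in WT, an 8.58-fold difference, and limma gave a log2 fold change of -1.47 with a standard error of 0.069 (adjusted p = 0.000144). This was the 75th lowest of the 12518 values. Without scaling, Fosl2 had 3.49, 3.17 and 2.93 TPM in WT and 0.18 and 0.29 TPM in the null samples, with a log2 fold change of -1.76.

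Fos (ENSMUSG00000021250, chromosome 12 from 85473890 to 85477273), the founding member and the gene most used to follow the response, had scaled levels of 1.10, 0.993 and 0.962 TPM in WT and 0.907 and 0.873 TPM in C3G null cells. The groups did not overlap, but the gap between them was smaller than the range within WT. The log2 fold change of -0.093 (95% confidence interval -0.28 to 0.096) did not pass (adjusted p = 0.400 from limma). As deposited it was -0.42 (adjusted p = 0.0330 from limma), which lies 0.13 above the median of all genes on that scale. Fosl1 (FRA-1; ENSMUSG00000024912, chromosome 19 from 5447547 to 5455946), a target of ERK signaling in many cells, was the least abundant of the family's 3 members studied here in WT, with scaled levels of 0.600, 0.509 and 0.508 TPM in WT and 0.372 and 0.287 TPM in the null samples. All its null values lay below all WT values. With no filter on low TPM, its log2 fold change of -0.21 did not pass (adjusted p = 0.151 from limma).

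The Jun genes, whose proteins can also pair with each other, split into a pair that fell and one that did not pass. Jun (ENSMUSG00000052684, chromosome 4 from 95049034 to 95052222) had scaled levels of 3.41, 3.10 and 2.62 TPM in WT and 0.971 and 1.13 TPM in C3G null cells, a 2.90-fold difference in mean. The 2 null samples were closer to each other than the WT samples were. By limma the log2 fold change was -0.98 with a standard error of 0.10 (adjusted p = 0.00153). Junb (ENSMUSG00000052837, chromosome 8 from 84974484 to 84978718), the most abundant Jun gene in WT, had 14.7, 14.6 and 13.2 TPM in WT and 6.69 and 6.99 TPM in the null samples after scaling. Its level in C3G null cells was 48.3% of that in WT, and its log2 fold change of -0.95 had a standard error of 0.071 (limma, adjusted p = 0.000522).

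Jund (ENSMUSG00000071076, chromosome 8 from 70698949 to 70700616), which is less tied to stimulation than the other Jun genes, had 12.0, 12.8 and 8.61 TPM in WT and 9.71 and 13.1 TPM in C3G null cells after scaling. The groups overlapped, and the spread within each group was larger than the difference between the means. Its log2 fold change was 0.035 (95% confidence interval -0.42 to 0.49, adjusted p = 0.907 from limma) after scaling and -0.60 (adjusted p = 0.0354) as deposited, which is 0.050 below the median of all genes on that scale. The sign thus differed between the scales, while the place among all genes was near the median on both. It also turned after scaling with WT 3 or C3G null 2 left out (log2 fold change -0.13 and -0.16), with a replicate block (-0.13) and with scaling to protein-coding TPM (-0.17).

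Atf3 (ENSMUSG00000026628, chromosome 1 from 191170296 to 191218039), a stress-induced partner of Jun proteins, had 0.990, 1.02 and 0.971 TPM in WT and 0.243 and 0.265 TPM in C3G null cells after scaling. The samples of each group were nearly the same, and the mean was 3.91-fold lower in the null samples. The log2 fold change by limma, -0.67 with a standard error of 0.078 (adjusted p = 0.00227), is small beside that ratio because the level is near the pseudocount of 1. Fosl2, Jun, Junb and Atf3 stayed lower and past the threshold in each of the alternatives in which they could be tested, 17 for Fosl2, Jun and Atf3 and 18 for Junb. Of these 4 genes Junb alone also had at least 1 TPM in both null samples.

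Egr1 (ENSMUSG00000038418, chromosome 18) had scaled levels of 1.97, 1.95 and 1.69 TPM in WT and 1.25 and 1.26 TPM in C3G null cells. The null samples lay below all WT samples, at 67.1% of the WT mean. By limma this gave a log2 fold change of -0.35 with a standard error of 0.079 (adjusted p = 0.0210). It was below 0 in all 17 alternatives and passed in 10 of them, with adjusted p between 0.000747 and 0.106 from limma. It did not pass with WT 1, WT 2, C3G null 1 or C3G null 2 left out (adjusted p = 0.0556, 0.0812, 0.0881 and 0.0814 from limma), with no filter (0.0631), after the length and GC correction (0.0896), or with that correction and a replicate block (0.106).

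Ier2 (ENSMUSG00000053560, chromosome 8 from 84661331 to 84662852), a nuclear protein of the same early response, was the most abundant of the 10 genes in both groups. It had 19.3, 20.4 and 17.1 TPM in WT and 18.2 and 21.8 TPM in C3G null cells after scaling, and the groups overlapped. The log2 fold change was 0.073 (95% confidence interval -0.19 to 0.33, adjusted p = 0.641 from limma) after scaling and -0.59 (adjusted p = 0.0453) as deposited, which is 0.039 below the median of all genes on that scale. The sign thus differed between the scales, and it also turned after scaling with C3G null 2 left out (log2 fold change -0.047) and with scaling to protein-coding TPM (-0.14).

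Myc (ENSMUSG00000022346, chromosome 15 from 61985391 to 61990374) had scaled levels of 11.4, 11.4 and 10.2 TPM in WT and 6.54 and 8.69 TPM in C3G null cells. Both null samples were below all WT samples, but they differed by 0.36 on the log2 scale, more than the 0.15 over which the WT samples ranged. The mean was 69.4% of that in WT and limma gave a log2 fold change of -0.48 with a standard error of 0.12 (adjusted p = 0.0264). It did not pass with WT 1, WT 2 or C3G null 1 left out (adjusted p = 0.0720, 0.0785 and 0.0910 from limma), or with no filter (0.0700), and over the 18 alternatives the adjusted p lay between 0.000117 and 0.0910. The log2 fold change of Myc was -0.31 without C3G null 1 and -0.66 without C3G null 2 (adjusted p = 0.0159 from limma).

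**Figure D2:**
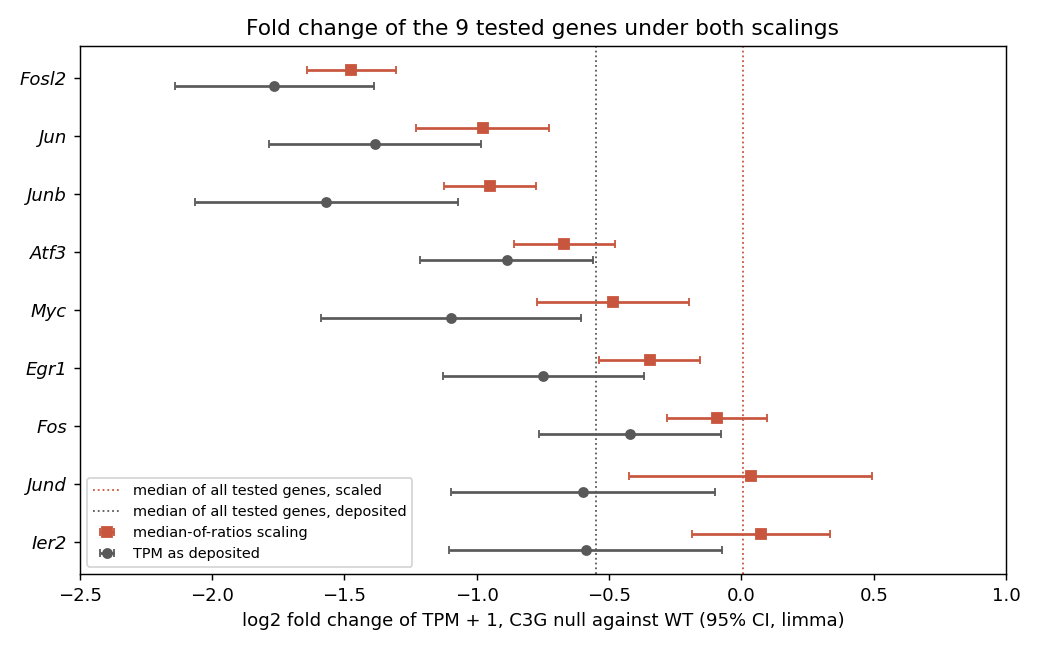
Log2 fold change of TPM + 1 in C3G null against WT cells for the 9 tested genes, with 95% confidence intervals from limma, after median-of-ratios scaling (red squares) and as deposited (grey circles). Dotted lines mark the median of all 12518 tested genes on each scale, and the intervals of Fos, Jund and Ier2 after scaling cross 0.

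**Figure D3:**
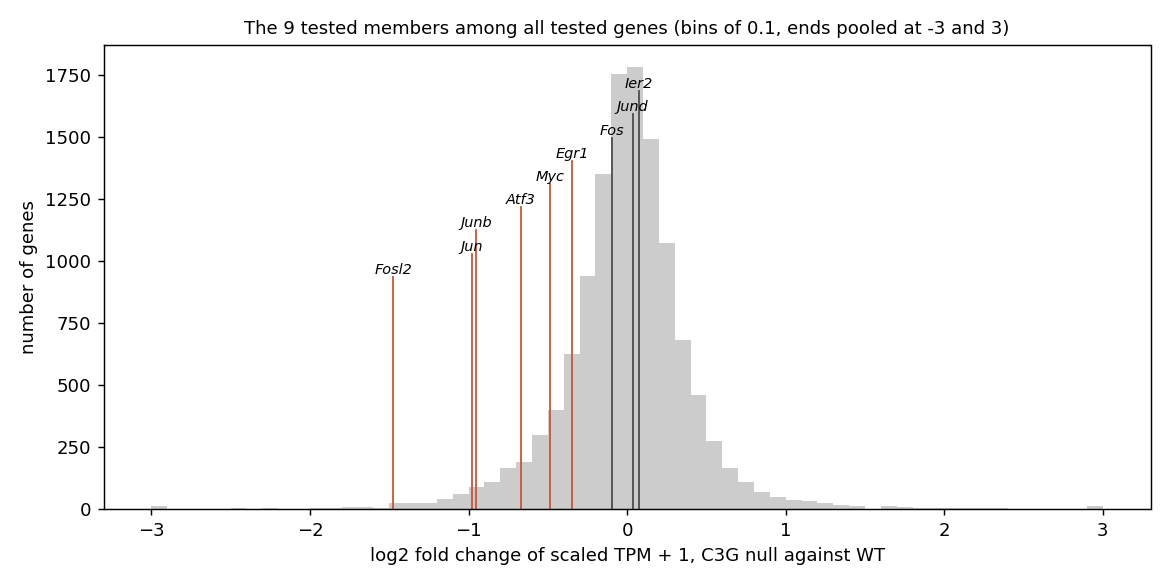
Number of genes (y axis) by log2 fold change of scaled TPM + 1, C3G null against WT (x axis), for all 12518 tested genes in grey. Vertical lines mark the tested members, red where they were lower past the threshold, from Fosl2 at -1.47 to Ier2 at 0.073.

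Set among all tested genes by log2 fold change after scaling, Fosl2 lay at percentile 0.591, Jun at 2.15, Junb at 2.28, Atf3 at 5.23, Myc at 9.12 and Egr1 at 14.5. Fos lay at percentile 36.3, Jund at 54.8 and Ier2 at 60.3, near the middle of the distribution, whose 5% and 95% points were -0.69 and 0.58.

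In WT cells the order of mean scaled levels was Ier2 (18.9 TPM), Junb (14.1), Jund (11.1), Myc (11.0), Jun (3.05), Fosl2 (2.63), Egr1 (1.87), Fos (1.02), Atf3 (0.993) and Fosl1 (0.539). The samples of Jund and Myc, of Jun and Fosl2, and of Fos and Atf3 overlapped in WT, so those neighbours cannot be ordered, and the other neighbours did not overlap. In C3G null cells the order was Ier2 (20.0 TPM), Jund (11.4), Myc (7.61), Junb (6.84), Egr1 (1.25), Jun (1.05), Fos (0.890), Fosl1 (0.330), Fosl2 (0.306) and Atf3 (0.254), where Myc and Junb, and Fosl1 and Fosl2, overlapped. Fosl2 went from the most to among the least abundant of the Fos genes studied, and Jund took the place of Junb as the leading Jun gene.

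A share of a family's TPM within 1 sample does not depend on the scaling between samples. Fosl2 made up 58.9%, 60.8% and 62.5% of the TPM of Fos, Fosb, Fosl1 and Fosl2 in WT and 16.2% and 20.1% in C3G null cells, while Fos made up 24.6%, 23.2% and 22.6% in WT and 50.5% and 54.9% in the null samples. The family was thus mostly Fosl2 in WT and mostly Fos in C3G null cells, where its summed scaled level was 39.2% of that in WT. Fosl1 made up 12.4% ± 0.907 (SD, n = 3) of the family in WT and 19.4% ± 1.88 (SD, n = 2) in the null samples, at levels below 1 TPM throughout. The short transcript Fosl1-203 held 14.6% of the Fosl1 TPM in WT and 65.3% in the null samples, so this share is not that of the full-length transcript. Within the Jun family the share of Jund was 40.0%, 42.0% and 35.2% in WT and 55.9% and 61.8% in C3G null cells. Junb went from 50.2% ± 3.40 (SD, n = 3) to 35.7% ± 3.94 (SD, n = 2) of that family and Jun from 10.7% ± 0.575 to 5.45% ± 0.197. Of the TPM of both families, Fos genes held 13.3% ± 1.31 (SD, n = 3) in WT cells and 8.18% ± 1.70 (SD, n = 2) in the null samples.

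Myc was the smaller part of its own family. Mycn, the paralog with the highest level in these ES cells, had scaled levels of 31.9, 32.2 and 29.5 TPM in WT and 26.7 and 30.5 TPM in the null samples, and its log2 fold change of -0.12 did not pass (adjusted p = 0.314 from limma). Myc made up 25.2%, 25.1% and 24.5% of the TPM of Myc, Mycn and Mycl in WT and 18.6% and 20.9% in C3G null cells. For each of the 8 shares computed, all null samples lay on one side of all WT samples, with p = 0.2 in a two-sided exact permutation test of 3 against 2 samples, which is the smallest p this test can give in this design.

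**Figure D4:**
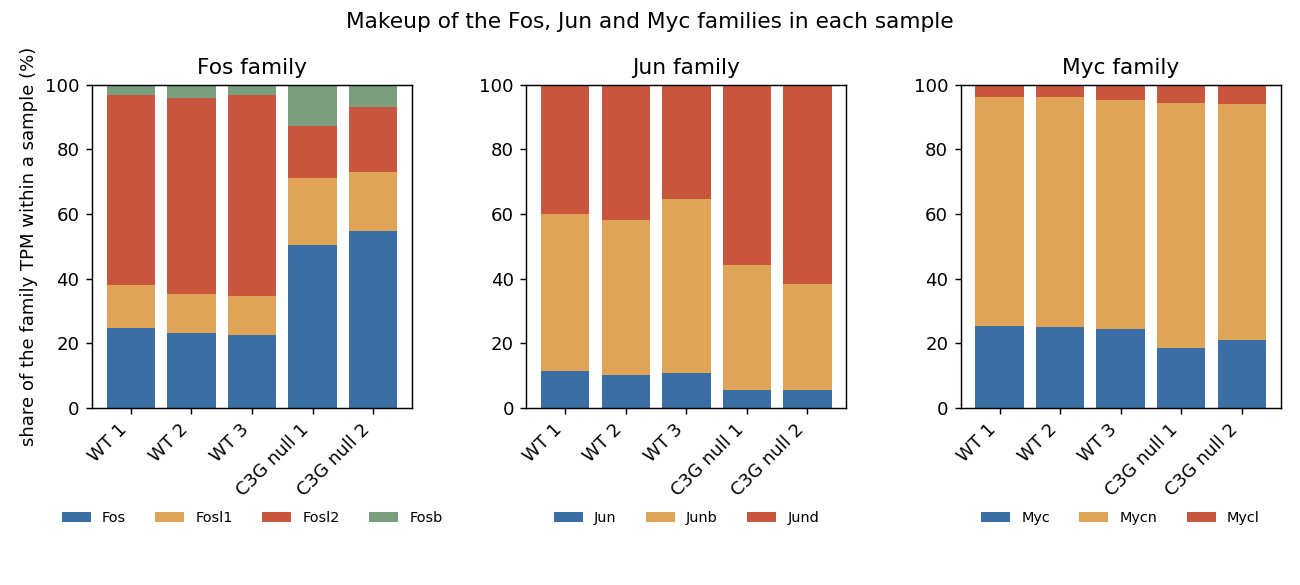
Share of the family TPM (y axis, percent) held by each gene of the Fos, Jun and Myc families in each of the 5 samples (bars). Fosl2 fills 58.9% to 62.5% of the Fos family in WT and 16.2% and 20.1% in the C3G null samples, and Jund fills the larger part of the Jun family in the null samples.

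Transcripts of the same gene were set side by side to see whether 1 of them carried the level. Jun, Jund and Ier2 have 1 transcript each, and Junb-201 held 98.9% of the Junb TPM in WT and 97.7% in C3G null cells. All 3 Fosl2 transcripts were lower in both null samples than in any WT sample. The protein-coding Fosl2-201 had 2.21, 2.13 and 1.77 TPM as deposited in WT and 0.09 and 0.10 TPM in the null samples, and the 2 transcripts with a retained intron had between 0.37 and 0.79 TPM in WT and at most 0.10 TPM in the null samples. Atf3-201 had 1.04, 1.24 and 1.07 TPM in WT and 0.15 and 0.24 TPM in C3G null cells and carried the Atf3 level, and Egr1-202 had 2.17, 2.23 and 1.65 TPM in WT and 0.61 and 0.95 TPM in C3G null cells. Fosl1 was different, since its full-length transcript Fosl1-201 had 0.55, 0.58 and 0.41 TPM in WT cells against 0.06 and 0.11 TPM in null cells, while the short Fosl1-203 had 0.25, 0.04 and 0 TPM in WT and 0.17 and 0.15 TPM in the null samples. Thus Fosl1-201 made up 77.8% of the Fosl1 TPM in WT and 34.7% in C3G null cells. Myc-201 and Myc-205 have the same sequence in the annotation and were given the same TPM in every sample, 4.68, 4.24 and 3.29 TPM each in WT and 1.26 and 2.17 TPM in the null samples, so their split is arbitrary and their sum is not.

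The other genes of the response were compared by lists written down from general knowledge. Of 35 other immediate early genes 28 were tested, and after scaling 16 were lower, 2 higher and 10 did not pass, beside 16.6% lower and 14.1% higher of all tested genes. Their median log2 fold change was -0.35, beside 0.0052 for all. The largest fall was that of Ccn1, a matricellular protein secreted on serum or stretch, with scaled levels of 13.1, 12.2 and 12.8 TPM in WT and 1.62 and 1.49 TPM in C3G null cells (log2 fold change -2.42, adjusted p = 2.4e-05 from limma). Its relative Ccn2 was at 13.4 ± 0.610 TPM (SD over 3 samples, as for the WT values that follow) in WT and at 6.48 ± 0.187 TPM (SD over 2 samples) in C3G null cells. Sgk1, a kinase induced by serum, had 23.2 ± 3.18 TPM in WT and 36.1 ± 1.79 TPM in C3G null cells, and Nfkbia, the inhibitor of NF-κB, 8.56 ± 0.779 and 10.6 ± 0.246 TPM. Both were higher after scaling (log2 fold change 0.63 and 0.28, adjusted p = 0.0125 and 0.0494 from limma) and below 0 as deposited (-0.048 and -0.35), and Nfkbia did not pass with no filter (adjusted p = 0.102). Egr2, Egr3, Egr4, Fosb, Nr4a2, Nr4a3 and Dusp2 lay below the filter.

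The next lists hold genes that share the partners of AP-1 or act on the promoters. Beside their counts, 16.6% of all tested genes were lower and 14.1% higher after scaling. Of 14 other AP-1 family genes 6 were tested, and Atf7 and Mafk were lower (log2 fold change -0.40 and -0.35, adjusted p = 0.0276 and 0.0349 from limma) and 4 did not pass. Corrected for GC content and length, Atf7 and Mafk had adjusted p = 0.0551 and 0.158 by limma, and with no filter 0.0746 and 0.0943, and none of the list was lower with quantile normalization or without WT 2, C3G null 1 or C3G null 2. Of 14 ATF and CREB factors 13 were tested, with 4 lower, 1 higher and a median of -0.035. Atf5 went from 9.51 ± 0.375 to 3.73 ± 0.242 TPM after scaling, Creb3 was lower too (log2 fold change -0.70), and Ddit3, the stress factor CHOP, was higher (0.46, but -0.073 as deposited). Of 18 drivers of immediate early transcription, all tested, 5 were lower and 4 higher. Elk3, a partner of SRF, went from 1.65 ± 0.0742 TPM to 0.521 ± 0.0645 TPM and the RSK kinase Rps6ka3 from 4.28 ± 0.440 to 2.70 ± 0.0699 TPM, while Mapk3, which encodes ERK1, went from 10.4 ± 0.327 to 16.3 ± 0.687 TPM and the MSK kinase Rps6ka5 from 2.45 ± 0.284 to 3.95 ± 0.134 TPM (log2 fold changes -0.80, -0.51, 0.60 and 0.52, with limma's adjusted p from 0.00123 to 0.00813). As deposited the last 2 had log2 fold changes of -0.046 and -0.0015. Elk3 had under 1 TPM in both null samples, where 39.4% of the tested genes were lower.

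Target genes of each factor were listed apart, beside the same background of 16.6% lower and 14.1% higher after scaling. Of 9 Egr1 partners and targets 7 were tested and 5 were lower, none higher by limma (none at an unadjusted p under 0.05 in this list, the next or the heat shock list below), with a median of -0.56, led by Pdgfa (13.2 ± 0.428 to 4.86 ± 0.311 TPM after scaling) and F3, tissue factor (4.42 ± 0.0689 to 1.75 ± 0.250 TPM). Of 14 AP-1 target genes 9 were tested and 6 were lower, none higher, with a median of -0.53, led by Plaur, the urokinase receptor (21.7 ± 0.885 to 5.98 ± 0.450 TPM), and Hbegf, a ligand of the EGF receptor (6.88 ± 0.464 to 2.28 ± 0.116 TPM). With a replicate block and the length and GC correction, 3 genes of the Egr1 list and 5 AP-1 targets were lower, beside 1510 of all tested genes. With a filter of 5 TPM these counts were 2 and 3, beside 1145 of the 7525 genes then tested. Of 26 Myc target genes, all tested, 2 were lower, 3 higher and 21 did not pass, with a median of 0.064. Cad, of pyrimidine synthesis, went from 35.4 ± 1.68 to 28.1 ± 1.63 TPM and Ccnd2, cyclin D2, from 1.09 ± 0.125 to 0.682 ± 0.0425 TPM, while Ldha, lactate dehydrogenase A, went from 223 ± 16.0 to 397 ± 21.9 TPM and Cdk4 from 192 ± 10.5 to 256 ± 0.499 TPM. After the length and GC correction the log2 fold changes of Cad and Ccnd2 were -0.027 and -0.18 (adjusted p = 0.750 and 0.159 from limma), and no Myc target was lower there or without WT 1, WT 2, C3G null 1 or C3G null 2. Ccnd2 had under 1 TPM in both null samples, where 39.4% of the tested genes were lower. As deposited 15 Myc targets were lower and none higher by limma, beside 56.8% and 1.45% of all tested genes, and the log2 fold changes of Ldha and Cdk4 were 0.13 and -0.28. No Myc target was higher with quantile normalization and 1 with scaling to protein-coding TPM, beside 1606 and 707 of all tested genes. In the Myc network, 12 of 13 genes were tested, none was lower by limma (3 at an unadjusted p under 0.05) and 2 were higher. These were Mxi1 and Mxd3, whose proteins compete with Myc for Max (log2 fold change 0.43 and 0.38, adjusted p = 0.00653 and 0.0254 from limma, and -0.14 and -0.097 as deposited). The network's counts turned with the scaling, with 5 lower and 0 higher as deposited and 3 lower and 0 higher with scaling to protein-coding TPM. Among all 12518 tested genes the counts were 7109 lower and 181 higher as deposited, and 3732 and 707 with scaling to protein-coding TPM.

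**Figure D5:**
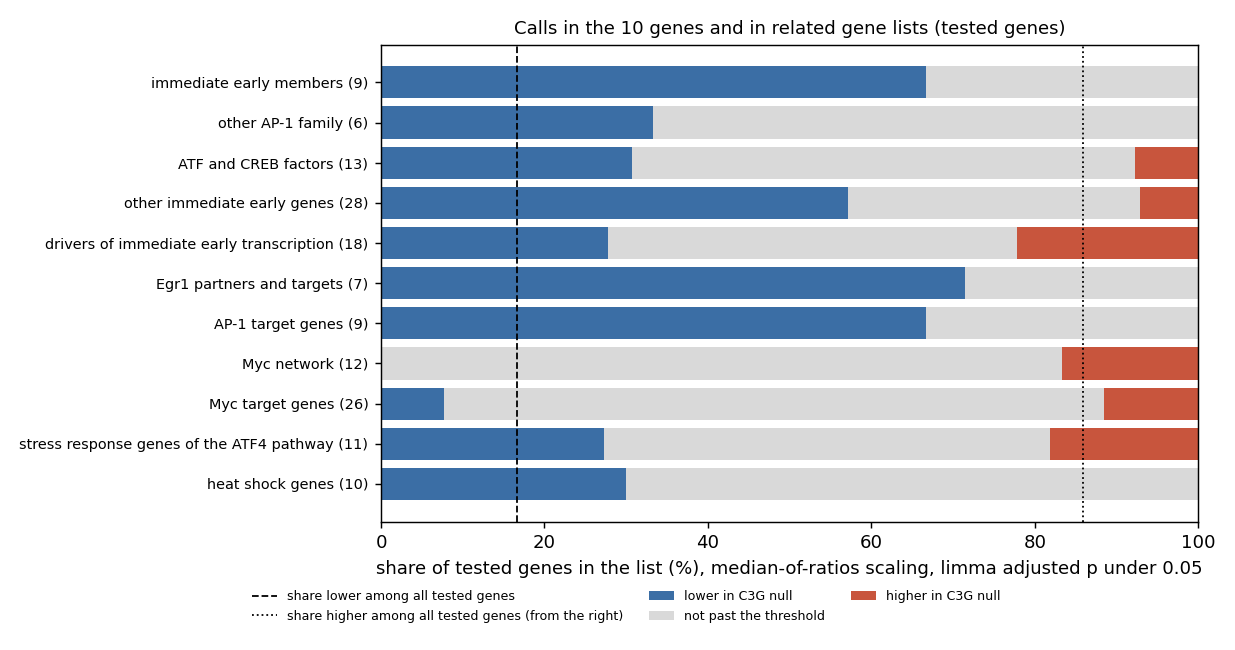
Share of the tested genes (x axis, percent; number tested in brackets) that were lower (blue), not past the threshold (grey) or higher (red) in C3G null cells after median-of-ratios scaling, for the 10 genes and for related lists (y axis). The dashed line marks the 16.6% lower among all tested genes and the dotted line the 14.1% higher, measured from the right, and 5 of 7 Egr1 partners and targets and 6 of 9 AP-1 targets are blue.

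Immediate early genes also respond to handling and stress, so lists for these are given beside the result. Of 10 heat shock genes, all tested, 3 were lower and none higher, with a median of -0.12, beside 16.6% and 14.1% of all tested genes. As deposited all 10 were lower, beside 56.8% of all, with a median of -0.79 that lies 0.24 below that of all genes. With scaling to protein-coding TPM or quantile normalization 5 were lower, beside 3732 and 1832 of the 12518 tested genes. The list had summed scaled levels between 2841 and 3179 TPM in WT and of 2817 and 2991 TPM in the null samples. The largest falls were those of Hspa1b and Hspa1a (log2 fold change -1.25 and -1.12), which are near-identical copies whose values are uncertain. Hspa1a had under 1 TPM in both null samples, where 39.4% of the tested genes were lower. Of 14 stress response genes of the ATF4 pathway, on which Atf3 also lies, 11 were tested, with 3 lower, 2 higher and a median of 0.031. Atf5 and Sesn2 were lower, and Ddit3 and Ddit4 were higher after scaling and below 0 as deposited. The part of handling or stress in the levels of the 10 genes was not tested.

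The samples carried the markers of ES cells, and some markers of other cell types passed the test. All 12 ES cell markers were tested, and Dppa5a held most of their summed level. The other 11 summed to between 738 and 839 TPM in WT and to 893 and 902 TPM in the null samples after scaling, and to between 925 and 983 TPM and 552 and 816 TPM as deposited. Klf4 was lower while Fgf4 and Dppa5a were higher (log2 fold change -0.51, 0.73 and 0.71, and -1.13, 0.065 and 0.0084 as deposited). For Klf4 this is opposite to the study, which reports its transcript by qPCR and its protein by western blot as higher in the null cells. After the length and GC correction Klf4 and Dppa5a did not pass (adjusted p = 0.0770 and 0.0646 from limma), nor with no filter (0.0888 and 0.0995), and no ES cell marker was lower without WT 1, WT 2 or C3G null 1. Of 10 mesoderm and ectoderm markers 6 had under 1 TPM in all samples, and the summed level of the list was between 14.9 and 17.5 TPM in WT and 8.13 and 10.6 TPM in the null samples, with Nes and T lower. Of 7 trophoblast markers 3 were under 1 TPM in all samples, and the sum was between 16.3 and 17.8 TPM in WT and 9.37 and 9.83 TPM in the null samples, with Krt7 and Cdx2 among the 3 that were lower. Of 8 fibroblast markers 6 were under 1 TPM in all samples, and the sum was between 3.77 and 4.61 TPM in WT and 1.73 and 1.66 TPM in the null samples, with Col1a1 and Thy1 lower. Of 10 primitive endoderm markers 5 were under 1 TPM in all samples, and the sum was between 46.5 and 49.4 TPM in WT and 40.2 and 41.8 TPM in the null samples, where Sparc was lower and Lama1 and Dab2 were higher. With no filter on low TPM, 4 primitive endoderm markers were higher and 1 lower, and 4 trophoblast and 4 fibroblast markers were lower. Of the genes then tested 4.33% were higher and 5.74% lower. Krt7, Cdx2 and Col1a1 had under 1 TPM in both null samples, so they were kept through WT alone, where 39.4% of the tested genes were lower. Over all tested genes 16.6% were lower and 14.1% higher. The part of differentiated cells in the immediate early levels was not tested.

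For the 3 members with the largest falls on the log2(scaled TPM + 1) scale, Fosl2, Jun and Junb, the genes with the most similar values over the 5 samples were found by the root mean square distance of log2(scaled TPM + 1), centred for each gene. Nearest to Fosl2 were Tinagl1, Ajuba and Ppl, at distances of 0.0372, 0.0400 and 0.0437. Nearest to Jun were Chd8, Piezo1 and Col1a1, at 0.0274, 0.0397 and 0.0421, and nearest to Junb were Flt1, Hr and A630089N07Rik, at 0.0197, 0.0224 and 0.0306. With a pseudocount of 0.1, Atf3 (-1.63) fell more than Jun (-1.45) and Junb (-1.04), so this choice of 3 depends on the pseudocount. Over 5 samples in 2 groups this mostly picks genes with the same fold change.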

How the data were processed

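Total RNA from 3 WT and 2 C3G null samples was sequenced as paired-end reads by the authors, who aligned them with STAR to GRCm38 and deposited TPM per Ensembl transcript. The submitters' processing notes name bcl2fastq 2.20, FastQC 0.11.7, STAR 2.5.1b and RSEM 1.2.31. The step that made the TPM is not given in the sources used here, and read counts were not analysed here, so the depth is unknown and precision is limited by how many samples there are. Of 142647 transcripts 141524 matched GENCODE M21 (GRCm38), and TPM were summed by symbol. Scaled TPM were compared with limma 3.58.1 (R 4.3.3, mean-variance trend), and shares with an exact permutation test (scipy 1.17.1). For TPM as deposited the prior degrees of freedom were infinite (3.11 after scaling), so each gene's own spread does not enter those p-values. The study's DESeq2 test needs counts and was not repeated. The study calls the samples of each group independent, without saying whether they are separate cultures or clones, and p-values measure the spread between these samples. The members and gene lists were chosen with earlier results of these data known, and some of the lists share genes.

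The text names all 10 members, Rapgef1, from every list the 2 genes that rose and the 2 that fell the most among those past the threshold, and the 3 nearest genes of 3 members. Mycn and the genes below the filter are named beyond this rule. Alternatives were TPM as deposited, scaling to protein-coding TPM, quantile normalization, a pseudocount of 0.1 or 5 in place of 1, leaving out the filter or raising it to 5 TPM, no trend, a robust prior, protein-coding transcripts, a length and GC correction (a smooth trend of each sample with a span of 0.5), a replicate block with and without it, and each sample left out in turn. The shares of Fosl2, Fos, Jun and Junb, their alternatives and the promoter motifs were added after seeing the data. Simulated data were also run through these steps, but no outcome of that run is given here. That run is therefore no evidence for the calls of individual members.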

Additional observations from a re-analysis of the deposited data

How the results depend on the processing

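Over 18 alternatives the count of lower members lay between 2 and 9, against 6. It was 2 with a filter of 5 TPM, where 4 of the members could be tested, 9 as deposited, 4 with no filter, and between 4 and 6 with a sample left out. No member was higher under any of them. The fold changes of Egr1, Fosl2, Jun, Junb, Atf3 and Myc were below 0 throughout. Fos was 0.038 with quantile normalization. Jund was -0.60 as deposited, -0.17 with protein-coding scaling, -0.13 with a replicate block and -0.16 to 0.24 with a sample left out, and Ier2 was -0.59, -0.14 and, with a sample left out, -0.047 to 0.20. The cause of these turns was not tested. Among all tested genes, 2083 were lower and 1760 higher, against 7109 and 181 as deposited (2.48% of the calls higher, against 45.8%) and 3732 and 707 with protein-coding scaling, where the median of all genes was -0.17. With a filter of 5 TPM 1145 were lower, from fewer genes tested, and with a sample left out between 1338 and 1845 were lower and between 891 and 1536 higher, fewest without WT 2. Rapgef1 had a log2 fold change of -0.14 after the length and GC correction and of -0.11 with the block added, neither past the threshold. With no filter Mxd3, Ccnd2, Dab2 and Thy1 did not pass (adjusted p between 0.0664 and 0.112 from limma). Of the other immediate early genes between 12 and 14 were lower with a sample left out, against 16, and of the other AP-1 family genes between 0 and 2, against 2. With a C3G null sample left out, the lone one is assumed to vary like the WT samples.

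The replicate numbers in the sample titles are shared by 2 pairs, whose deviations from the group means correlated at -0.18 and 0.18 across genes, so the numbers do not show a pairing. The deviations of the 2 null samples mirror each other, so this check is weak. The library name of C3G null 2 carries another number than its title, and the replicate block uses the titles. With the replicate block 6 members were lower, as were 1814 of all genes, and 1488 were higher, and with both the replicate block and the correction these counts were 5, 1510 and 1140. All 8 family shares kept their direction with each sample left out and with protein-coding transcripts alone. With a sample left out, the difference in the Fosl2 share lay between -44.5 and -40.6 percentage points and that in the Jund share between 16.9 and 22.7. With protein-coding transcripts alone, the share of Fosl1 was higher by 10.6 percentage points in C3G null cells, against 6.94. That setting keeps the short Fosl1-203, which is annotated as protein-coding.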
